A study of Mus musculus x Rattus norvegicus with 2 samples.

Results

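The airway cells compared were those of a single droplet single-cell RNA library, the control, in which rat and mouse cells could be told apart by the species of their transcripts. The library was made from the lung of an E20.5 mouse-rat chimera whose host rat was wild type (wt), with the strains given as C57BL/6 and SD, strains of mouse and rat. Cells of a species are told apart by RNA alone, and the number of embryos in a library is not given in the sources used here. The other library of the series, labelled mutant, came from mouse lung formed in an Nkx2-1-/- rat, and it is used here for counts of cells alone. Each library had 1 sample, so rat and mouse cells share a single sample, no difference has a replicate check and no p-value was computed.

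Cells were chosen by 2 secretoglobins, small secreted proteins of the airway. A barcode was kept with at least 500 genes and at most 20% of its unique molecular identifiers (UMIs, 1 per counted molecule) on mitochondrial genes. It was called rat with at most 10% of its UMIs on mouse genes, and mouse with at least 90%. A cell then passed the gate with at least 1 Epcam UMI (an epithelial adhesion molecule) and at least 20 UMIs of Scgb1a1 and Scgb3a2 together, on the genes of its own species. The gate held 164 of 9021 kept barcodes of the library, 78 of 725 rat cells and 86 of 7414 mouse cells, out of 18011 kept barcodes in the series. These genes chose the cells, so their levels are a description.

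In the lung, Sox2 marks the conducting airway and Sox9 the growing distal tips, and Nkx2-1 is needed for both. Secretory (club) cells of the airway make SCGB1A1 and SCGB3A2 and metabolise foreign compounds, and Notch signalling separates them from ciliated cells, which depend on Foxj1. Distal tips and alveolar type 2 (AT2) cells make surfactant proteins, of which SFTPC is the best known. Secretoglobin RNA is the usual mark of a club cell in mouse lung.

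By Sftpc, the label of secretory airway cells failed for most rat cells of the gate, but for few of the mouse cells. A low Sftpc does not show that a cell is secretory, and 32 of the 86 mouse cells expressed cilia genes, as given below. Of the 78 rat cells, 66 (84.6%, 95% interval 74.7 to 91.8) had more Sftpc UMIs than Scgb UMIs, against 2 of 86 mouse cells (2.33%, 0.283 to 8.15). Intervals here and below are exact 95% intervals and cover counting error only. The rat cells of the gate are therefore called Scgb-gated cells, and values are given again for the 12 rat and 84 mouse cells with at least as many Scgb as Sftpc UMIs.

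Rat and mouse cells passed the gate on different secretoglobins. The rat cells had 20 to 775 Scgb1a1 UMIs (median 42.5), and the mouse cells had 0 to 427 (median 3). For Scgb3a2 the rat cells had 0 to 542 UMIs (median 0), and the mouse cells had 19 to 4333 (median 183.5). Every rat cell had more Scgb1a1 than Scgb3a2, and every mouse cell had at least as much Scgb3a2 as Scgb1a1. Scgb3a2 was found in 8 of 78 rat cells (10.3%, 4.53 to 19.2), and in all 86 mouse cells. A gate on Scgb3a2 alone, at 20 UMIs, would have kept 6 rat and 85 mouse cells.

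**Figure D1:**
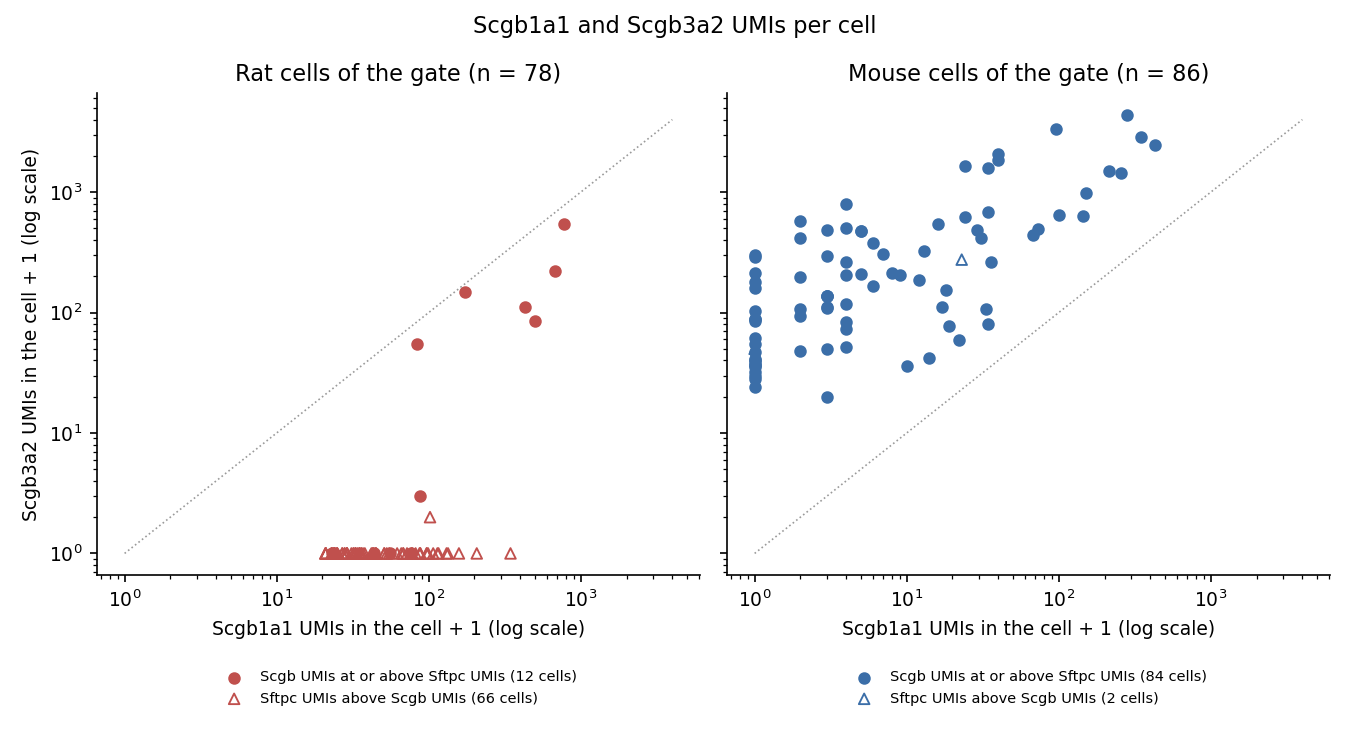
UMIs of Scgb1a1 (x) and Scgb3a2 (y) in each cell of the gate, plus 1, on log axes, for 78 rat cells (left) and 86 mouse cells (right); the dotted line marks equal UMIs. Rat cells lie below the line and most have no Scgb3a2, while mouse cells lie above it.

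Summed over cells and scaled to own-species UMIs, Scgb1a1 stood at 1428 CPM (1395 to 1463; counts per 1000000 UMIs) in rat cells and 649 CPM (625 to 674) in mouse cells. Scgb3a2 stood at 243 CPM (229 to 257) in rat cells and 9523 CPM (9430 to 9617) in mouse cells. Epcam was at 1400 CPM in rat cells and 918 CPM in mouse cells. Mouse Scgb1a1 (ENSMUSG00000024653) lies on chromosome 19 from 9083636 to 9087958 on the minus strand of mm10, and the rat gene is ENSRNOG00000020196. Mouse Scgb3a2 is ENSMUSG00000038791 and the rat gene ENSRNOG00000026912.

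Most rat cells of the gate were Sftpc-high cells with Scgb1a1 and almost no Scgb3a2. The 66 rat cells had 38 to 2053 Sftpc UMIs (median 379.5) and 20 to 344 Scgb1a1 UMIs (median 36.5). Their summed Scgb3a2 was 1 UMI, or 0.222 CPM. Sox2 had no UMI in them, where 3 counts would be 0.665 CPM, and Sox9 was present in 65 of 66 cells at 149 CPM. They thus had the surfactant and Sox9 RNA of distal epithelium beside a secretoglobin, with the airway factor Sox2 below detection.

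Rat Sftpc cells below the gate also had Scgb1a1. Of 134 Epcam-positive rat cells with at least 20 Sftpc UMIs, 67 passed the gate, and so did 6 of 690 mouse cells. The 67 rat cells below the gate held 394 CPM of Scgb1a1 (361 to 430), and the 684 mouse cells below it 0.669 CPM (0.396 to 1.06), although the gate had taken the cells with 20 or more Scgb UMIs from both. After each cell was thinned to 3000 own-species UMIs, Scgb1a1 was found in 43 of 65 rat cells below the gate (66.2%, 53.4 to 77.4) and in 1 of 625 mouse cells (0.160%, 0.00405 to 0.888). Before thinning the shares were 89.6% in rat and 2.63% in mouse cells, at median depths of 13416 UMIs in rat and 17819 UMIs in mouse cells.

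Collagen-rich cells, which should lack the gene, gave the background. Scgb1a1 was in 1.58% of 317 rat collagen-rich cells (0.514 to 3.64) after thinning, at a median depth of 8880 UMIs, below the share of rat Sftpc cells. Mouse collagen-rich cells had 0.375% (0.187 to 0.670) at a median of 9970 UMIs, within the interval of the mouse Sftpc cells. Scgb3a2 was rare in Sftpc-rich cells below the gate in both species. After thinning it was found in 0 of 65 rat cells (upper limit 5.52%) and in 16 of 625 mouse cells (2.56%, 1.47 to 4.12), against 0 of 317 rat (upper limit 1.16%) and 2.32% of mouse collagen-rich cells. All 158 rat epithelial cells outside the gate together had 282 CPM of Scgb1a1 (262 to 303), and the 1454 mouse cells had 1.26 CPM (0.917 to 1.68).

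**Figure D2:**
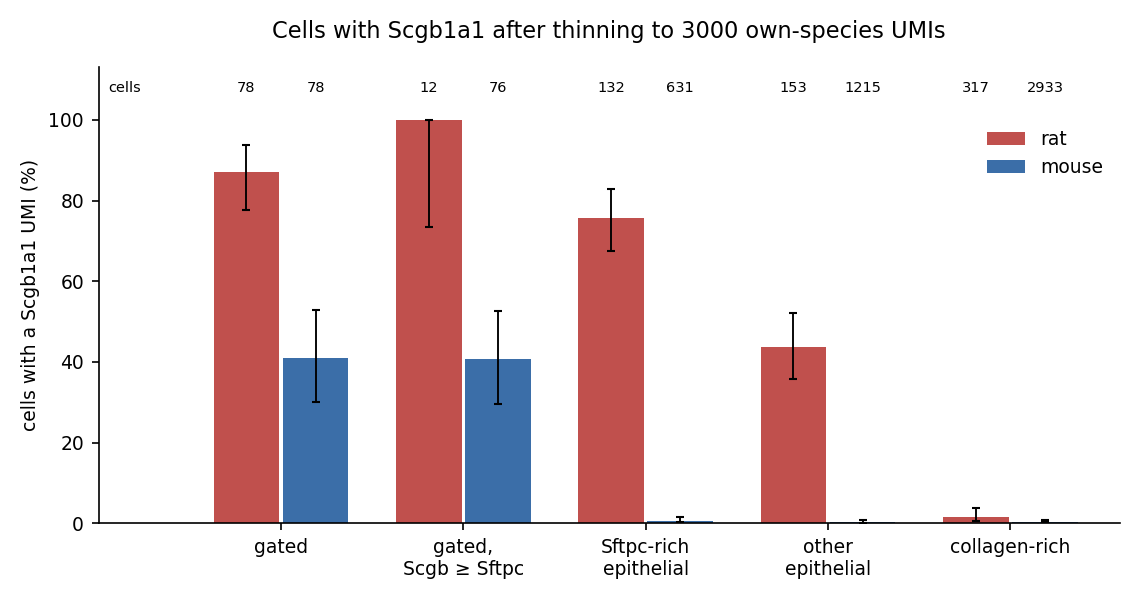
Percent of cells with at least 1 Scgb1a1 UMI after thinning to 3000 own-species UMIs, in rat (red) and mouse (blue) cells of 5 classes, with exact 95% intervals of counting error and the number of cells above each bar. The gated bars were chosen on the gene; the Sftpc-rich bars (75.8% in rat and 0.634% in mouse) include 67 gated rat cells and 6 gated mouse cells, and the other epithelial bars include none.

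The limit of 20 UMIs did not fall at a gap among rat cells. The 14 rat cells with 20 to 24 Scgb UMIs had 1081 CPM of Scgb1a1 and 10061 CPM of Sftpc. The 12 rat cells with 15 to 19 had 807 CPM of Scgb1a1 and 6032 CPM of Sftpc. In mouse, 2 cells had 20 to 24 UMIs and 5 had 15 to 19, with Scgb3a2 at 5730 CPM in the first set and 541 CPM in the second. Since the gate counts UMIs, depth enters the choice: median own-species depth was 41016.5 UMIs in rat and 31185 in mouse gated cells, and 10912.5 in rat and 10779.5 in mouse cells of the other epithelium. The median mitochondrial share was 4.75% in rat and 1.74% in mouse gated cells; its part in the differences was not tested.

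RNA from other cells was read as UMIs of the other species. Rat gated cells held 0.0256 mouse Scgb1a1 UMIs and 0.256 mouse Scgb3a2 UMIs per cell. Mouse gated cells held 0.174 rat Scgb1a1 and 0.0233 rat Scgb3a2 UMIs per cell. All these lie below the 20 UMIs of the gate. For Sftpc the values were 13.1 mouse UMIs per rat cell, whose own median was 306.5, and 0.233 rat UMIs per mouse cell, whose own median was 4. EGFP, a sequence added to the gene set, stood at 124 CPM of all UMIs in rat gated cells (median 3 UMIs) and at 9760 CPM in mouse gated cells (median 224 UMIs), and Tomato had none in either. Mixed barcodes, with over 10% and under 90% mouse UMIs, numbered 882 and were left out of the main comparison.

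The 12 rat cells with at least as many Scgb as Sftpc UMIs had airway genes that were at or near 0 in the other 66. They had 22 to 775 Scgb1a1 UMIs (median 85) and 0 to 542 Scgb3a2 UMIs (median 28), and 6 of them reached 20 Scgb3a2 UMIs. Scgb1a1 was at 11105 CPM (10707 to 11514) in these rat cells and at 668 CPM (644 to 694) in the 84 mouse cells. Scgb3a2 was at 4383 CPM (4134 to 4643) in the rat cells and at 9801 CPM (9705 to 9898) in the mouse cells. One rat cell held 542 of the 1158 Scgb3a2 UMIs, and without it the rat level was 2519 CPM. Even here the species differed in which secretoglobin led.

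Sox2, with no UMI in the Sftpc-high rat cells, was at 79.5 CPM (49.2 to 122) in the 12 rat cells and 90.3 CPM in the 84 mouse cells. Krt8, a simple epithelial keratin, was at 1098 CPM in rat and 1278 CPM in mouse cells. Krt15, a keratin of basal and immature airway cells, was at 212 CPM (160 to 275) in rat and 339 CPM in mouse cells. The interval of the log2 difference included 0 for Sox2 (-0.89 to 0.53) and lay just below it for Krt8 (-0.43 to -0.01). Nkx2-1 stood at 473 CPM in rat and 325 CPM in mouse cells.

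Sftpc, which set this split, was low in most cells of both sets. Of 76 Sftpc UMIs in the 12 rat cells, 1 cell held 55 and another 14. The median over cells was 55.1 CPM in the rat cells and 121 CPM in the 84 mouse cells, while the sums gave 288 CPM in rat (85.9 CPM without the first cell) and 150 CPM in mouse. Mouse collagen-rich cells had 215 CPM of Sftpc, so the mouse airway level was no higher than this background, and rat collagen-rich cells had 8.95 CPM. Sftpb, which airway secretory cells also make, was at 405 CPM (332 to 489) in the rat and 34.2 CPM in the mouse cells, with a UMI in 10 of the 12 rat cells. Its highest count, 30 UMIs, lay in a rat cell with 80 UMIs of the alveolar gene Hopx beside 84 of Scgb3a2. The rat cells with 25 and 19 Sftpb UMIs had no Scgb3a2 or Sox2 UMI, and the former had 14 Sftpc UMIs. The next, with 10, had 110 Scgb3a2 and 5 Sox2 UMIs. Whether the 12 rat cells include alveolar or distal cells, and which cells account for the Sftpb level, was not tested. The other 2 mouse cells held most of the gated mouse Sftpc, 5452 of 6061 UMIs, so that the level over all 86 mouse cells was 1437 CPM.

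**Figure D3:**
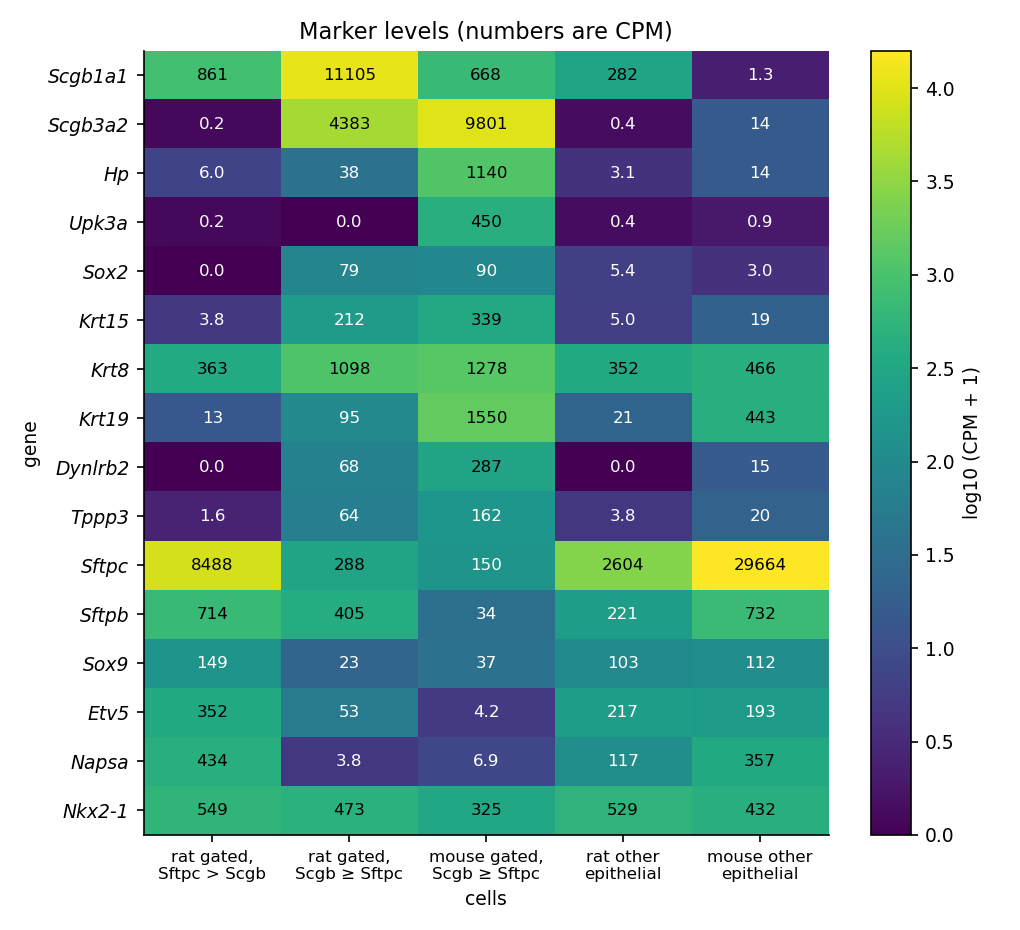
Levels of 16 marker genes (rows) in 5 sets of cells (columns), printed in each cell as CPM and coloured by log10 of CPM + 1. The 66 rat cells with more Sftpc than Scgb have 0.222 CPM of Scgb3a2 and no UMI of Sox2 or Dynlrb2, whereas among the 12 rat cells with Scgb at or above Sftpc 7 have Scgb3a2, 9 have Sox2 and 1 has Dynlrb2.

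Across genes, 16074 symbols were shared by the species' gene sets, and 8947 reached 10 CPM in either species' gated cells. A log2 difference is that of rat over mouse CPM after adding 10 CPM to both, and a gene counts as higher or lower at 2-fold or more. Of the measured symbols, 858 were higher in rat (9.59%) and 1809 lower (20.2%), with a median difference of -0.06. Among cells with Scgb at or above Sftpc, 8895 symbols were measured, of which 772 were higher (8.68%) and 2028 lower (22.8%) in rat, with a median of -0.19. Here the 12 rat cells held only 264203 UMIs, so a low gene rests on few counts. The counts of each gene list below are to be read beside these shares, and a count near them is no result about the list.

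Genes of secretory airway cells were lower in the rat gated cells as a group. Without Scgb1a1 and Scgb3a2, which chose the cells, 9 of 11 measured were lower and none higher, with a median log2 difference of -2.14 (-0.06 over all symbols, -0.02 for these genes in other epithelial cells). In the 12 and 84 cells 7 of 11 were lower and none higher, with a median of -1.67 (-0.19 over all symbols). With both secretoglobins in, 10 of 13 were lower and 1 higher (median -2.14) in the gated cells, and 8 and 1 of 13 (median -1.16) in the smaller sets. Hp, which encodes haptoglobin, was at 7.75 CPM in rat and 1113 CPM in mouse gated cells, and at 37.8 (rat) and 1140 (mouse) CPM in the cells with Scgb at or above Sftpc. Upk3a, a uroplakin of a subset of club cells, had 1 UMI in the rat gated cells and 438 CPM in the mouse cells. It had none in the 12 rat cells, at least 39.7-fold lower than the 450 CPM of the mouse cells (limit of 3 counts). All kept rat cells together had 2 Upk3a UMIs, so how well the rat feature counts this gene is not known. Upk3a and Nupr1, which had no UMI in any kept rat cell, are both in the counts of lower genes and in the medians above. A gene that the rat feature does not count can only fall on the lower side.

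Other members differed less once the Sftpc-high cells were set aside. Aldh1a1, a retinaldehyde dehydrogenase, was at 3.56 CPM in rat and 88.7 CPM in mouse gated cells, but at 56.8 CPM in rat (31.8 to 93.6; 34.0 without the highest cell) and 91.0 CPM in mouse cells with Scgb at or above Sftpc. Lypd2 was at 78.8 (rat) and 381 (mouse) CPM in the gated cells, and at 568 (rat) and 387 (mouse) CPM in the smaller sets, so its direction changed. Nupr1, a stress-linked nuclear protein, had no UMI in any kept rat cell. Cyp2f2, the main club cell P450 of mouse, had no rat feature and stood at 289 CPM in mouse gated cells; its rat counterpart, listed as Cyp2f4, had 3 UMIs (0.628 CPM) in the rat cells.

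Of 15 measured genes of xenobiotic metabolism, 10 were lower and 1 higher in the rat gated cells (median -1.34), and 7 were lower and 4 higher of 17 in the smaller sets (median -0.82). Mgst1, a microsomal glutathione transferase, was at 185 CPM in rat and 833 CPM in mouse gated cells, and at 473 (rat) and 843 (mouse) CPM in the smaller sets. Ces1d, a carboxylesterase, was at 2.51 (rat) and 250 (mouse) CPM in the gated cells. Nqo1, a quinone reductase, was the member higher in rat, at 76.9 (rat) and 2.84 (mouse) CPM, and it was at 78.1 (rat) and 2.29 (mouse) CPM in the other epithelial cells. Cyp2s1, another P450, was lower in the gated rat cells (4.40 CPM in rat and 59.0 CPM in mouse) but at 75.7 CPM in the 12 rat cells against 61.0 CPM in the 84 mouse cells.

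Genes of motile cilia were lower in all 11 cases measured, with medians of -3.19 in the gated cells and -1.92 in the smaller sets. Among them Pifo, Ccdc153 and Tmem212 had no UMI in any kept rat cell. For these genes absent expression cannot be told apart from a rat feature that counts nothing. Dynlrb2, a dynein light chain, was at 3.77 CPM in rat and 276 CPM in mouse gated cells, and 1 rat cell held all 18 rat UMIs. Tppp3 was at 5.03 (rat) and 156 (mouse) CPM. In mouse, 33 of 86 gated cells (38.4%) had a UMI of Foxj1, the ciliary transcription factor, and 32 had at least 5; the rat gene set held no Foxj1 feature. The same 32 mouse cells were the ones with at least 3 UMIs over the 11 cilia genes (up to 608), and the remaining mouse cells had at most 2. Of the 12 rat cells, 2 reached 3 such UMIs, and 1 of these held 45 of their 55. Mouse cells past the gate thus included 32 that also expressed cilia genes, a mixture that the level of every mouse gene carries. These 32 cells were deep, with 30990 to 175429 own-species UMIs, where the median of the 84 mouse cells was 27718.5. Since levels are summed UMIs, they weigh more in each mouse level than their number.

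Setting aside the cells with cilia UMIs left 10 rat and 52 mouse cells with Scgb at or above Sftpc. Among them Krt8 (log2 -0.0013) and Sox2 (-0.09) still stood close between species, and Scgb1a1 remained higher in rat (3.64). Scgb3a2 (-1.44), Hp (-5.27) and Upk3a (-5.26) remained lower in rat, and Aldh1a1 was then lower as well (-1.69). The median of the secretory list was -1.69. This split was chosen after the values were seen.

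AT2 genes were higher in rat in 8 of 10 cases in the gated cells (median 3.72) and in 6 of 9 in the smaller sets (median 2.15). In other epithelial cells the list's median was -1.21, a set from which the gate had taken many rat Sftpc cells and few mouse ones. Sftpb was at 697 CPM in rat and 51.4 CPM in mouse gated cells. Slc34a2, the type II phosphate transporter, was at 366 (rat) and 1.90 (mouse) CPM. Lamp3, a lamellar body membrane protein, was at 209 (rat) and 2.61 (mouse) CPM. Sftpa1 was at 691 (rat) and 16.1 (mouse) CPM in the gated cells, and at 231 (rat) and 2.46 (mouse) CPM in the smaller sets (125 CPM in rat without the highest cell), whereas Napsa, the aspartic protease that processes SFTPB, was at 410 (rat) and 17.3 (mouse) CPM and then at 3.78 (rat) and 6.89 (mouse) CPM.

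Distal tip genes were also higher in the rat gated cells, 7 of 9 with 1 lower (median 1.66), but 2 of 7 higher and 2 lower in the smaller sets (median 0.52). Sox9 was at 142 CPM in rat and 38.4 CPM in mouse gated cells, and at 22.7 CPM (8.33 to 49.4) in the 12 rat cells and 37.1 CPM in the 84 mouse cells. Etv5, a target of FGF signalling, was at 335 (rat) and 12.8 (mouse) CPM in the gated cells. Bmp4, a tip ligand, was at 396 (rat) and 15.2 (mouse) CPM. The tip genes thus followed the 66 Sftpc-high rat cells.

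Of 9 measured Notch pathway genes, 4 were lower and none higher in the rat gated cells (median -0.98), and 5 were lower in the smaller sets (median -1.05). Hes1, a transcriptional repressor induced by Notch, was at 134 CPM in rat and 762 CPM in mouse gated cells, and at 261 (rat) and 781 (mouse) CPM in the smaller sets. The receptor Notch3 was at 0.838 (rat) and 38.2 (mouse) CPM in the gated cells. The receptor Notch1 was at 86.5 (rat) and 45.5 (mouse) CPM and the ligand Jag1 at 33.9 (rat) and 41.5 (mouse) CPM, both short of 2-fold. Hes1 was lower in the other rat epithelial cells too, at 99.9 (rat) and 198 (mouse) CPM.

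Among 17 keratin and junction genes, 6 were lower and 1 higher in the rat gated cells (median -0.46), and 2 each in the smaller sets. Krt19 was at 17.2 CPM in rat and 1514 CPM in mouse gated cells, 94.6 (rat) and 1550 (mouse) CPM in the smaller sets, and 21.4 (rat) and 443 (mouse) CPM in other epithelial cells. Of 21 transcription factors of lung epithelium, 2 were higher and 6 lower (median -0.28), near the shares over all symbols (9.59% higher and 20.2% lower). Foxa1 was at 3.14 (rat) and 89.4 (mouse) CPM while Foxa2 was at 167 (rat) and 152 (mouse) CPM, and Irx1 was at 282 (rat) and 43.9 (mouse) CPM.

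The median difference of G2 and M phase genes changed sign between the sets of cells, and that of S phase genes hardly moved. The median of 13 measured genes of G2 and M phases was 0.83 in the gated cells, with 2 higher and none lower, and -0.35 in the smaller sets, with none higher and 5 lower. The median of 12 S phase genes was 0.46 in the gated cells and 0.52 in the smaller sets. Ube2c was at 563 CPM in rat and 288 CPM in mouse gated cells, but at 53.0 (rat) and 274 (mouse) CPM in the smaller sets (31.4 CPM in rat without the highest cell). Mki67 was found in 37.2% of 78 thinned rat cells and in 37.2% of 78 thinned mouse cells (26.5 to 48.9 in both), where the unthinned shares were 84.6% in rat and 60.5% in mouse cells. Cdkn1c, an inhibitor of the cell cycle, was at 209 (rat) and 3635 (mouse) CPM in the gated cells, and at 2074 (rat) and 3734 (mouse) CPM in the smaller sets.

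Genes of cholesterol synthesis were higher in rat, 4 of 14 in the gated cells (median 0.51) and 8 of 14 in the smaller sets (median 1.36), with none lower in either. Insig1, a brake on sterol synthesis, was at 678 CPM in the 12 rat cells and 50.9 CPM in the 84 mouse cells. The list's median was 0.94 in other epithelial cells, where Insig1 was at 444 (rat) and 34.3 (mouse) CPM. Immediate early genes, which respond to dissociation among other stimuli, had 6 of 12 higher and none lower in the gated cells (median 0.91). In the smaller sets 8 of 12 were higher and 1 lower (median 1.49). The list's median was 1.11 in other epithelial cells and 1.46 in collagen-rich cells. The part of these genes in the other differences was not tested.

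The remaining lists lay nearer to 0, or rested on few genes, in the gated cells, and some turned in the 12 rat and 84 mouse cells. Ion and water transport had 4 lower and none higher of 10 (median -0.47), among them the sodium channel subunits Scnn1a (1.89 CPM in rat and 62.3 CPM in mouse), Scnn1b and Scnn1g. Genes of the secretory pathway and the unfolded protein response had 4 higher and none lower of 18 (0.43). Medians were 0.44 for 11 genes of hypoxia and glycolysis, 0.54 for 6 of interferon response and -0.13 for 9 of glucocorticoid response, and 0.50, 0.76 and -0.04 in the smaller sets. The heat-shock list (11 genes) was at -0.66 in the gated cells and 0.36 in the smaller sets, and fatty acid synthesis (11 genes) at -0.89 and -0.15. Fetal growth genes had 5 higher and 3 lower of 12 (0.47) in the gated cells, and 3 higher and 1 lower of 11 (-0.52) in the smaller sets. AT1 genes had 3 higher and 3 lower of 11 (0.00), then 4 and 1 of 11 (0.43), and goblet cell genes 1 higher of 3 (-0.14), then 2 higher and 1 lower of 4 (1.09). Mucosal defence had 5 higher and 1 lower of 6 (2.44): the surfactant proteins Sftpa1 and Sftpd, which the AT2 list also holds, the cytokines Il33 (102 CPM in rat and 0.237 CPM in mouse) and Ccl20, and Cxcl17 were higher, and Wfdc2, a secreted protease inhibitor, was lower (801 CPM in rat and 4236 CPM in mouse). Markers of other cell types were low: among basal markers only Krt15 was measured, Krt5 and Krt14 had no UMI in either species, and the p63 gene, listed as Tp63 in rat and Trp63 in mouse, had 1 UMI in rat and none in mouse. Of neuroendocrine genes 3 were measured (-1.49), of endothelial genes 4 (-0.27), of fibroblast and smooth muscle genes 6 (-0.25), of immune genes 1 and of red cell genes none.

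**Figure D4:**
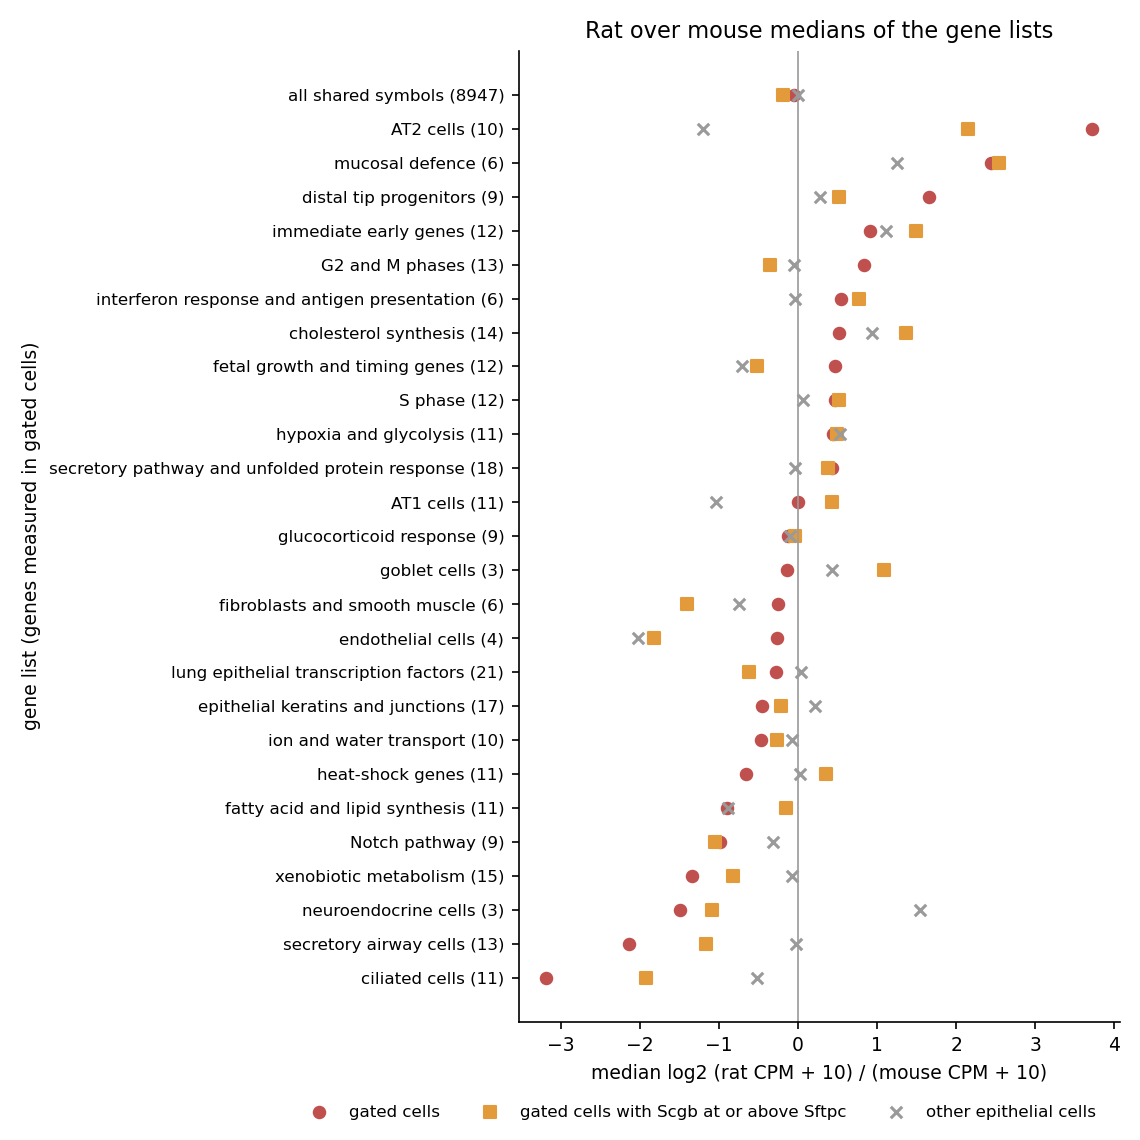
Median log2 difference of rat over mouse for each gene list with at least 3 measured genes (rows; number measured in the gated cells in parentheses), in all gated cells (circles), in gated cells with Scgb at or above Sftpc (squares) and in other epithelial cells (crosses). Among the circles, cilia (-3.19) and secretory genes (-2.14) lie lowest and AT2 genes (3.72) highest. All 3 lists lie nearer to 0 in the cells with Scgb at or above Sftpc, a split made on Sftpc, itself an AT2 marker. The secretory list plotted includes Scgb1a1 and Scgb3a2, which chose the cells. Without these 2 genes its square would lie at -1.67.

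Many of the largest single differences were shared with other cells of the library. Among the 12 genes most above mouse in rat gated cells, Nme2 (log2 6.21) and Ube2s (4.005) were at 5.05 and 3.72 in collagen-rich cells. Among the 12 most below, Ptma (-7.04), H2az1 (-5.33), Tle5 (-5.09), Actg1 (-4.81), Arf1 (-4.33), Tmsb10 (-4.32) and Pkm (-4.18) were between -6.61 and -2.92 there. Several of these genes have near-identical copies in the genome, and how reads were split among copies in each gene set was not tested.

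Other top genes differed less in the other cells, to varying degrees. Gadd45g, a growth arrest gene, was at 1332 CPM in rat and 31.8 CPM in mouse gated cells (log2 5.01), and the difference was 1.996 in other epithelial and 2.10 in collagen-rich cells. Egfl6 was at 500 (rat) and 22.0 (mouse) CPM (3.99), with -0.02 and -0.60 in those cells. Ddah1 was at 225 (rat) and 4.50 (mouse) CPM (4.02), with 2.25 and -0.99. Cxcl1, a neutrophil chemokine, was at 170 (rat) and 0.474 (mouse) CPM (4.10), a difference largely shared with other epithelial (3.20) and collagen-rich cells (2.80).

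Among the genes lower in rat, Krt19 (log2 -5.81) was at -3.85 in other epithelial and -1.76 in collagen-rich cells, and Nudc (-4.73) at -2.85 and -2.60. Ccnd2, a G1 cyclin, was at 36.4 (rat) and 906 (mouse) CPM (-4.30), with -1.36 and -0.90 in those cells. Cdkn1c (-4.06) was at -1.63 and -0.08.

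Set against the mean of other epithelial and collagen-rich cells, the highest were Sftpc, Dlk1, Sftpa1, Slc34a2, Napsa, Sftpb, Col18a1 and Egfl6. The gate had taken 67 of 134 rat Sftpc-rich cells out of the other epithelial cells, but only 6 of 690 mouse ones. Sftpc was left at 2604 (rat) and 29664 (mouse) CPM there. This ranking therefore cannot separate a species difference in AT2 and distal genes from the choice of cells. Dlk1, an imprinted Notch-family ligand, was at 712 CPM in rat and 95.8 CPM in mouse gated cells, but at 308 (rat) and 1792 (mouse) CPM in other epithelial cells. The lowest were Tppp3, Gsta4, S100a6, Cdkn1c, Ccnd2, Krt19, Mlf1 and Ifitm3. Gsta4, a glutathione transferase, was at 450 (rat) and 549 (mouse) CPM in gated cells, near equal, and at 728 (rat) and 108 (mouse) CPM in other epithelial cells, where rat was higher. S100a6, a calcium-binding protein, was at 233 (rat) and 561 (mouse) CPM in the gated cells, and was higher in rat in the smaller sets (log2 1.72).

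**Figure D5:**
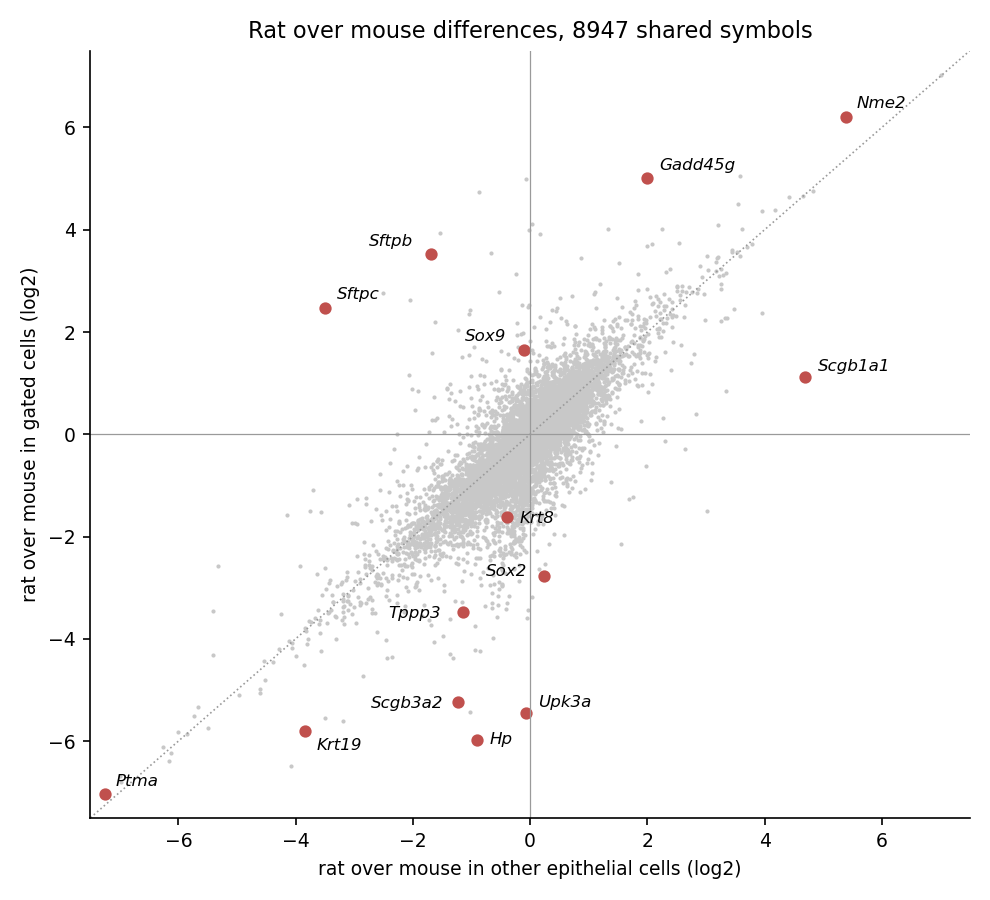
Log2 difference of rat over mouse for 8947 shared symbols in other epithelial cells (x) and in gated cells (y), with 14 genes named in red; the dotted line marks equal differences. Ptma and Nme2 lie near the line, while Sftpc and Sftpb lie above it and Hp and Upk3a below it. Scgb1a1 also lies below it, but Scgb1a1 and Scgb3a2 chose the cells of both axes, so their places are a description. The gate had also taken many rat Sftpc cells and few mouse ones from the cells of the x axis.

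The same rule named other genes when applied to the 12 rat and 84 mouse cells. Id1, an inhibitor of differentiation induced by BMP signalling, was at 1472 CPM (389 UMIs) in rat and 114 CPM in mouse cells, a log2 difference of 3.58, against 0.59 in other epithelial and 0.62 in collagen-rich cells. Lox, lysyl oxidase, was at 167 (rat) and 7.13 (mouse) CPM, and Tspan8, a tetraspanin, at 284 (rat) and 29.8 (mouse) CPM. Igf2, the fetal growth factor, was at 1098 (rat) and 42.1 (mouse) CPM (4.41), and was nearly as far apart in other epithelial cells (3.95). Fmod, fibromodulin, had no UMI in these rat cells and 137 CPM in the mouse cells, and Ctsh, cathepsin H, was at 37.8 (rat) and 478 (mouse) CPM. Hopx, a homeodomain protein of alveolar type 1 cells, was at 519 CPM in rat and 195 CPM in mouse cells, but 1 rat cell held 80 and another 44 of its 137 UMIs, and the rat level without the first was 271 CPM.

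By share of cells, the gate held 10.8% of kept rat cells (8.60 to 13.2) and 1.16% of kept mouse cells (0.929 to 1.43), or 33.1% of 236 Epcam-positive rat cells and 5.58% of 1540 mouse cells. In the mutant library 70 mouse cells passed the gate, and 0 of 79 rat cells did, which allows up to 3.80% (3 counts). Kept barcodes of that library held 1 rat Epcam UMI and no rat Scgb1a1 or Scgb3a2 UMI. With almost no rat epithelium to choose from, the gate cannot give a secretory share among rat epithelial cells there. Barcodes kept in both libraries numbered 29, of which 1 was a gated rat cell and none a gated mouse cell. The control library held 123047433 UMIs over 11129 barcodes and the mutant 103627303 over 10918.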

How the data were processed

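Droplet single-cell RNA libraries of 1 control and 1 mutant sample were analysed from the UMI count matrices the authors deposited, made with Cell Ranger 6.0.1 (control) and 7.0.1 (mutant) per the file headers. The builds mm10 and rn6 and Seurat 4.3 are named in the submitters' processing notes; whether intronic reads were counted is not given in the sources used here. The gene set held 55403 mouse and 25399 rat features, and genes were paired by identical symbol (16074 symbols), using the feature with most UMIs where a symbol repeats. The gate removes no doublets, and a Scrublet score limit of 0.2 was an alternative. Counts were summed over cells per species and divided by own-species UMIs; 10 CPM were added before log2, and a symbol was measured at 10 CPM in either species. Counts are of 3' molecules, so levels were not scaled by length. Collagen-rich cells had no Epcam UMI and at least 20 UMIs of Col1a1 and Col3a1 (and Col1a2 in mouse, which has no rat feature). Named genes had at least 100 CPM and 20 UMIs in the higher species and 10 CPM over the kept cells of both. Mitochondrial, ribosomal and globin genes and those of the gate were left out, as were Xist, Tsix, Ddx3y, Eif2s3y, Kdm5d and Uty. Other genes of the X chromosome stayed in, among them Egfl6. The 12 at each end by log2 difference were taken, and the 8 at each end after subtracting the mean difference of other epithelial and collagen-rich cells. The cells and the 29 gene lists were chosen with earlier results of these data known, and the sets with Scgb at or above Sftpc, or without cilia UMIs, the Sftpc-rich cells below the gate and the values without the highest cell, after seeing the values. Some genes that this rule names are not reported here. With 1 library no test was run. The code was tested on simulated data. Python 3.11.15, NumPy 2.4.6, pandas 2.3.3, SciPy 1.17.1, Scanpy 1.11.5 and matplotlib 3.10.9 were used.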

Additional observations from a re-analysis of the deposited data

Results flagged for a closer look

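Outside the comparison, 16 of the 882 mixed barcodes passed the gate on their rat genes, with a median of 19.6% mouse UMIs, and 8 of them had more rat Sftpc than Scgb UMIs. On mouse genes 2 mixed barcodes passed, with a median of 78.2% mouse UMIs. They were set apart because they carry a signal in barcodes that the main comparison did not use. An alternative setting with species limits of 80% and 20% takes in those with at most 20% mouse UMIs as rat. Whether they are doublets was not tested.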

How the results depend on the processing

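No paired analysis was possible because the labels carry no replicate numbers and 1 library holds both species. Of 586 list medians under other settings, none changed sign from a 2-fold difference, and 555 kept their sign; of 1233 values of named genes 1204 did, and 20 of 1118 with a 2-fold main difference changed sign. The gate held 42 rat cells at a limit of 40 Scgb UMIs, 12 without cells with more Sftpc than Scgb, 6 on Scgb3a2 alone, and 10 without Sftpc-high cells and cells with cilia UMIs. It held 54 mouse cells without cilia UMIs, and 52 without both. Genes higher in rat numbered 1335 with 1 CPM added, 289 with 50 CPM and 568 at a minimum of 50 CPM; genes lower numbered 442 with 50 CPM added and 763 at that minimum.

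The secretory median was -1.55 at a limit of 1000 CPM, -1.16 without Sftpc-high cells, -1.16 on Scgb3a2 alone, -1.69 without both, -2.38 with 1 CPM added, -1.37 with 50 CPM, -3.29 at a minimum of 50 CPM, -1.19 with no minimum, -1.91 as a mean per cell and -2.80 after thinning. In the same settings the cilia median was -1.92 without Sftpc-high cells, -1.58 on Scgb3a2 alone, -4.71 and -1.52 with 1 and 50 CPM added, -2.25 as a mean per cell and -2.65 thinned. The AT2 median was 4.46 at 1000 CPM, 2.15 without Sftpc-high cells, 1.16 on Scgb3a2 alone, 2.68 without cilia cells, 2.23 without both, 4.11 and 2.53 with 1 and 50 CPM added, and 3.43 thinned. The distal tip median was 0.52 without Sftpc-high cells, 0.22 on Scgb3a2 alone, 0.63 without both and 0.70 with 50 CPM added.

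Gene directions turned mostly with the rat cells chosen. Without Sftpc-high cells the log2 differences were 1.37 for Hopx, 1.72 for S100a6 and -0.53 for Sox9. On Scgb3a2 alone they were 0.035 for Aldh1a1, -0.10 for Col18a1, -0.35 for Dlk1, 1.39 for Hopx, 0.018 for Krt15, 0.021 for Krt8, -1.45 for Napsa, 1.89 for S100a6, -1.997 for Sftpc, 0.29 for Sox2 and -0.26 for Sox9, from 6 rat cells. Without both Sftpc-high and cilia cells they were 1.60 for Hopx, -0.59 for Napsa, 1.74 for S100a6 and -0.67 for Sox9. Mlf1 was at 0.20 without cilia cells, and Arf1 at 1.08 with cross-species UMIs subtracted. The cause was not tested. The 12 rat cells limit the depth: at 264203 UMIs, a count of 0 allows 11.4 CPM.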
